A study of Mus musculus with 4 samples.

Results

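The genes of the vesicle exocytosis machinery were followed in single cells sorted from mouse enteroids. They were chosen by a rule on gene names, with earlier results of these data known. The rule took the syntaxins, VAMPs, Snap genes, Munc18 and tomosyn proteins (Stxbp), synaptotagmins and synaptotagmin-like proteins. It also took the Rab3 and Rab27 GTPases and the Rims, Unc13, Cadps, complexin and Sv2 families. This gave 76 of the 29161 genes in the count table. A further 3 names, Cplx4, Syt10 and Syt8, matched the rule and had no row.

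Enteroids are epithelial mini-guts that grow in Matrigel from intestinal crypts and make all the cell lineages of the gut lining. They came from female CD1 mice carrying 1 Neurog3eYFP allele, whose reporter marks cells that express Neurog3, the transcription factor that starts endocrine differentiation, and, while the protein lasts, their descendants. All cells carried this allele, and no wild-type or untreated group was part of the comparisons. Each of 4 plates received 92 living, eYFP-positive cells: plates 1, 2 and 3 were duodenum replicates 1, 2 and 3, from mice of 39, 12 and 12 weeks, and plate 4 was jejunum replicate 1, from 12 weeks. The table held 290 of the 368 sorted cells, with 63 to 83 cells and 23893272 to 46490618 counts per plate.

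In regulated exocytosis a hormone granule is carried to the plasma membrane, held there by Rab GTPases and their effectors, and prepared for fusion by Unc13 and Cadps proteins. Fusion itself is driven by a SNARE complex, made of Vamp2 or a relative on the granule and of Stx1a and Snap25 or their relatives on the plasma membrane. Synaptotagmins sense calcium and complexins clamp or assist the complex, so that the granule releases its content when calcium enters the cell. Enterochromaffin cells release serotonin, made through the enzyme encoded by Tph1, and other enteroendocrine cells release peptide hormones such as cholecystokinin (Cck), GIP (Gip), glucagon-like peptides (Gcg) and ghrelin (Ghrl).

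Cells were placed in 4 classes by the transcripts of Tph1, peptide hormones, Neurog3 and the granule protein gene Chgb. None of these is among the exocytosis genes followed here. Levels are in CPM, the counts of a gene per 1000000 counts. Tph1-high cells had Tph1 at 200 CPM or more, peptide-hormone-high cells had Cck, Gip, Gcg or Ghrl at 1000 CPM or more, Neurog3-positive cells had at least 5 counts of Neurog3, and Chgb-low cells had Chgb, which encodes the granule protein chromogranin B, under 2000 CPM. A cell had to meet 1 of the first 3 criteria only, and the Chgb-low class held cells that met none of them. This left 77 Tph1-high, 45 peptide-hormone-high, 31 Neurog3-positive and 96 Chgb-low cells, while 22 cells met several of the first 3 criteria and 19 met none of the 4. Median counts per cell were 527643, 507319, 368037 and 379137 in the same order. Of the 31 Neurog3-positive cells, 24 also had Chgb under 2000 CPM, as had 19 of the 45 peptide-hormone-high cells.

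The classes were checked against marker lists. The summed level of 10 enterochromaffin markers was 83240 to 120414 CPM in Tph1-high cells, 10514 to 18839 CPM in peptide-hormone-high cells and at most 5220 CPM in the others. The summed level of 12 peptide hormone markers was 45658 to 135388 CPM in peptide-hormone-high cells and at most 1855 CPM elsewhere. These lists hold Tph1, Chgb and the hormones that define the classes, so they describe the classes and test nothing. In Chgb-low cells the sum of 7 goblet markers was 17382 to 24124 CPM and that of 7 Paneth markers 4389 to 14561 CPM, against 351 to 1363 and 226 to 379 CPM in Tph1-high cells. Most of the goblet sum in Chgb-low cells was Tff3 and Fcgbp, with plate means of 15577 and 3126 CPM. The lowest goblet marker there was Clca1, at a mean of 0.15 CPM, and the lowest Paneth marker was Defa22, at 2.00 CPM. In Neurog3-positive cells the goblet sum was 9054 to 22781 CPM and that of 8 progenitor markers 1586 to 3851 CPM, with Neurod4 at 0. The progenitor sum was 891 to 1453 CPM in Chgb-low cells and at most 1165 CPM in Tph1-high and peptide-hormone-high cells. This list holds Neurog3, which defines the class and was at 1478 and 134 CPM in plates 2 and 3, so it too tests nothing. Enterocyte markers, 6 in the table, were at 933 to 4438 CPM in peptide-hormone-high cells and at most 1770 CPM elsewhere. Tph1-high cells carried 4 stroma markers at 12.2 to 94.3 CPM, against at most 1.26 CPM elsewhere, with Dcn at 0. Of these, Pecam1 had the highest plate mean, 31.5 CPM, with 19 of 77 cells at 20 CPM or more. Col1a1 and Col1a2 reached that level in 2 and 1 of the 77 cells. Tph1-high cells also carried 4 tuft markers at 3.96 to 14.2 CPM, against at most 2.60 CPM elsewhere, with Pou2f3 at 0. The part of these marker lists in the results was not tested. Immune markers stayed under 2 CPM in every class and plate. The share of mitochondrial counts was 3.30% to 7.11% in Tph1-high, 3.79% to 5.88% in peptide-hormone-high, 5.00% to 11.1% in Neurog3-positive and 6.52% to 9.97% in Chgb-low cells.

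Counts were summed over the cells of a class within a plate wherever there were at least 5 such cells. This gave 13 sums: 4 plates of Tph1-high cells, plates 2, 3 and 4 of peptide-hormone-high cells, plates 2 and 3 of Neurog3-positive cells and 4 plates of Chgb-low cells. Plates are the replicates. Plate 1 differs from the others in the age of its mouse. The labels do not say whether plates 2, 3 and 4 came from separate animals or cultures. The p-values therefore measure the spread between these plates, which may be technical. The classes were compared in 1 edgeR quasi-likelihood fit with the plate as a block, and p-values were adjusted over all 14895 genes tested. Of the 76 exocytosis genes, 56 passed the filter on low counts and 20 did not, among them Syt1, which encodes the calcium sensor of fast synaptic release.

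The exocytosis genes differed widely in where they were found. Among the 76, 52 reached 20 CPM in at least 1 of the 13 sums, 24 stayed under 20 CPM in all of them, and 11 stayed under 1 CPM in all. Cplx2, Rab3d, Stxbp2, Syt13 and Vamp8 were at 20 CPM or more in all 13 sums. Syt2 and Syt4 had no count in any sum. The summed level of all 76 genes was 3386 to 4868 CPM in Tph1-high, 3244 to 3852 CPM in peptide-hormone-high, 1691 to 3071 CPM in Neurog3-positive and 1562 to 2242 CPM in Chgb-low cells. Both hormone-expressing classes thus lay above the Chgb-low class in every plate, and the ranges of the hormone-expressing classes overlapped each other.

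**Figure D1:**
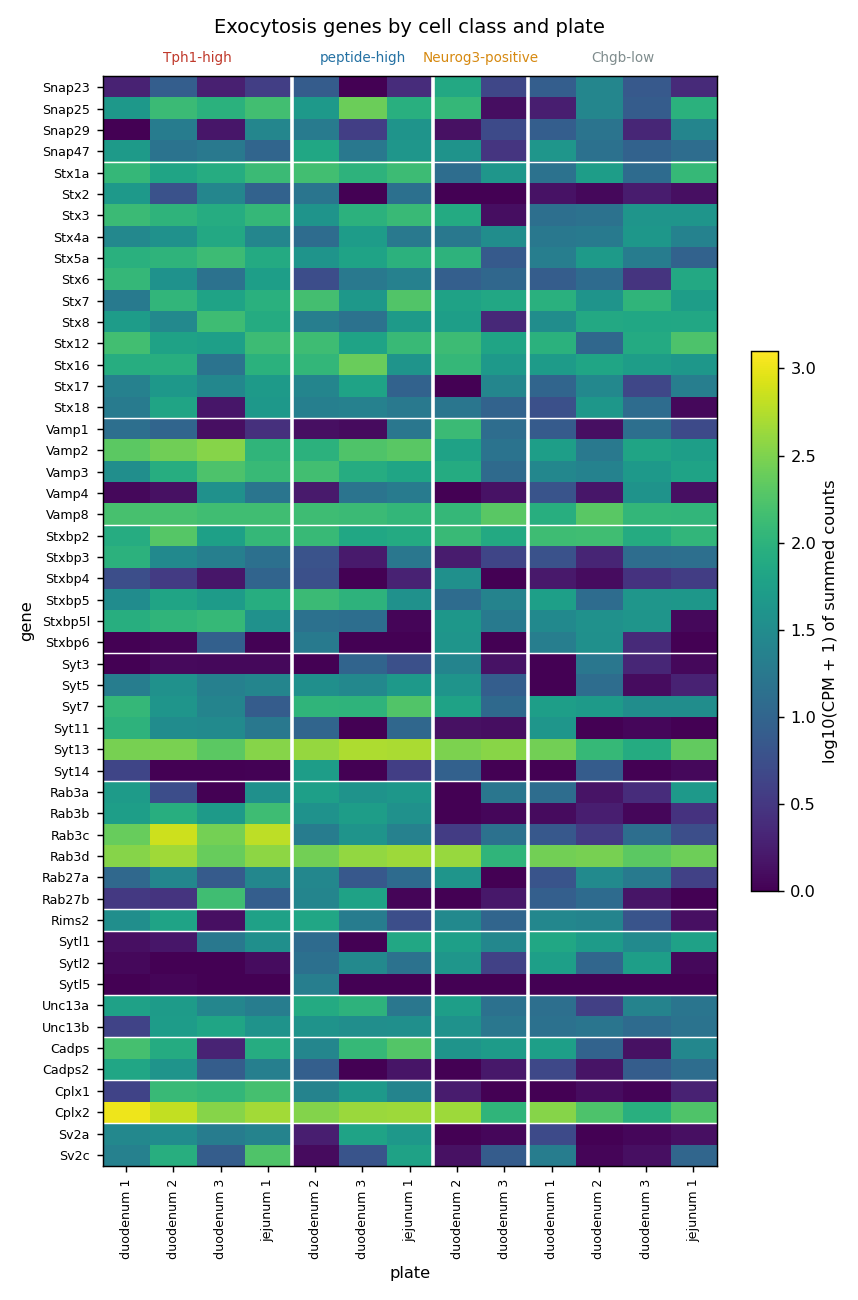
Levels of 51 of the 52 exocytosis genes that reached 20 CPM in at least 1 of the 13 sums, as log10(CPM + 1) of summed counts, with genes in rows grouped by role and the 13 class and plate sums in columns (peptide-high stands for peptide-hormone-high). Rab3c is bright in the 4 Tph1-high columns only, Rab3b and Cplx1 are dark in the Neurog3-positive and Chgb-low columns, and Rab3d, Syt13 and Cplx2 are bright in all 13.

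Between Tph1-high and Chgb-low cells edgeR called 3 exocytosis genes, all higher in Tph1-high cells: Rab3c, Rab3b and Cplx1. It called none lower, while DESeq2 called Sytl2 and Sytl4 lower, and edgeR called Sytl2 lower with no plate block or with cells that met several criteria kept. Sytl4 was at 6.98 CPM in the Chgb-low cells of plate 2 and at 0 in every other sum of these classes. Only 1 Chgb-low cell had it at 20 CPM or more. The background was 0.873% of the 14895 genes called higher in Tph1-high cells and 1.52% called lower, against 3 and 0 of the 56 exocytosis genes tested. Rab3b and Rab3c encode Rab3 GTPases, which sit on secretory vesicles and take part in their docking, and Cplx1 encodes complexin 1, which binds the assembled SNARE complex.

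The sequences before the start sites of these 3 genes are shown because they are the only exocytosis genes that passed the main edgeR test in any comparison. Each is the 250 bases before the RefSeq start on GRCm38.p6, read 5′ to 3′ on the strand of the gene. Rab3b lies on the plus strand of chromosome 4, with the stretch at chr4:108878820-108879069. Rab3c lies on the minus strand of chromosome 13, with the stretch at chr13:110280207-110280456, and here the longer GENCODE gene (110054187 to 110280996) extends past the RefSeq start, so that the stretch lies inside it. Cplx1 lies on the minus strand of chromosome 5, with the stretch at chr5:108550028-108550277. Capitals mark matches to GGGCGG (the GC box) or its complement CCGCCC, and to CAGCTG, an E-box that reads alike on both strands.
Rab3b: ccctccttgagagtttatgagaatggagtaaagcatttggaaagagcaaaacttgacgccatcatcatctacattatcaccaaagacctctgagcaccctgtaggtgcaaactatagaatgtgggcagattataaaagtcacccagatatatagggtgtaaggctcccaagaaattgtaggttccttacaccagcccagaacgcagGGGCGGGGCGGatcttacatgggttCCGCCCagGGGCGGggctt
Rab3c: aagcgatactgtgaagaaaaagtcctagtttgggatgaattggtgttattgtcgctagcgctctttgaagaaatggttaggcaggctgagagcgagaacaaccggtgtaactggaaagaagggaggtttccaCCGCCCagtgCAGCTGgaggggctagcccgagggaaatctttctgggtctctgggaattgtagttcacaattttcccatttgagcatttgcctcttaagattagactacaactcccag
Cplx1: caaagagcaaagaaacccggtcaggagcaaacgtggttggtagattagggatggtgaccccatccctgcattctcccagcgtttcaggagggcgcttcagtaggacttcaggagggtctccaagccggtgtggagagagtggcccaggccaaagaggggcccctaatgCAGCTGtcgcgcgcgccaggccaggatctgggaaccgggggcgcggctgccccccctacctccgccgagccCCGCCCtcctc
The Rab3b stretch held 4 GC boxes, of which 2 overlap by their last and first letter, and no CAGCTG. The Rab3c and Cplx1 stretches each held 1 GC box and 1 CAGCTG. None of the 3 held CAGATG or CATCTG (the E-box of neurogenin-type factors), TAATTA (a homeodomain core) or CCACTT or AAGTGG (an Nkx2 core), on either strand. Over all 32851 RefSeq promoters of the same length, 32.7% held the GC box, 13% CAGCTG, 14.4% CAGATG, 4.84% TAATTA and 14.1% CCACTT. Over the 74 promoters of the 60 exocytosis genes with a match, 44 held the GC box, 21 CAGCTG, 6 CAGATG, 1 TAATTA and 9 CCACTT. The GC box and CAGCTG were added to the search after these letters had been seen, and a match describes letters, not a binding site.

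Rab3c had the values 239.6, 729, 279 and 613 CPM in the Tph1-high cells of plates 1 to 4, and 6.08, 2.42, 12.3 and 4.52 CPM in the Chgb-low cells of the same plates. In peptide-hormone-high cells of plates 2, 3 and 4 it was at 19.1, 39.3 and 21.8 CPM, and in Neurog3-positive cells of plates 2 and 3 at 2.52 and 13.5 CPM. The lowest Tph1-high plate thus lay above every plate of the other classes. Rab3c was higher in Tph1-high than in Chgb-low cells by 6.14 ± 0.79 on the log2 scale (SE, edgeR adjusted p = 0.0028). It was also higher than in Neurog3-positive cells, by 6.25 ± 1.10 (edgeR adjusted p = 0.037). Against peptide-hormone-high cells the log2 difference was 4.48 ± 0.81 and did not pass the test (edgeR adjusted p = 0.12, unadjusted p = 3.01e-04), although the plates of these classes did not overlap. This difference was called by DESeq2 and by limma with each cell counted alike.

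Cell by cell, Rab3c was at 20 CPM or more in 66 of 77 Tph1-high cells (85.7%, exact 95% interval 75.9% to 92.6%). The same held for 8 of 45 peptide-hormone-high cells (17.8%, 8.00% to 32.1%), 2 of 31 Neurog3-positive cells (6.45%, 0.791% to 21.4%) and 4 of 96 Chgb-low cells (4.17%, 1.15% to 10.3%). The plates ran from 12 of 17 Tph1-high cells in plate 1 to 21 of 22 in plate 2, so the high level was spread over most cells of the class in each plate. These intervals cover counting error only, since cells of a plate share a library and reads may include PCR copies. The median per cell was 369 CPM in Tph1-high cells and 4.87 CPM in peptide-hormone-high cells.

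Rab3b had the values 54.3, 85.8, 47.2 and 137 CPM in Tph1-high cells of plates 1 to 4, and 37.0, 52.3 and 36.1 CPM in peptide-hormone-high cells of plates 2, 3 and 4. It was at 0 and 0.144 CPM in Neurog3-positive cells of plates 2 and 3, and at 0.24, 0.806, 0.13 and 1.84 CPM in Chgb-low cells of plates 1 to 4. Both hormone-expressing classes were therefore high and the other classes near 0, with no overlap between them. Against Chgb-low cells the log2 difference was 6.70 ± 1.01 for Tph1-high cells (edgeR adjusted p = 0.0069) and 5.71 ± 1.02 for peptide-hormone-high cells (edgeR adjusted p = 0.038). Between the hormone-expressing classes it was 0.99 ± 0.93 and did not pass (edgeR adjusted p = 0.93). Against Neurog3-positive cells, which held 1 count of Rab3b in the tested sums, the ratio of pooled CPM was 990 for Tph1-high cells (95% counting interval 178 to 39120, edgeR adjusted p = 0.042). For peptide-hormone-high cells it was 383 (68.6 to 15150), and this difference did not pass by edgeR (edgeR adjusted p = 0.14) but was called by DESeq2.

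The Rab3b counts came from a minority of cells. It was at 20 CPM or more in 27 of 77 Tph1-high cells (35.1%, 24.5% to 46.8%) and 6 of 45 peptide-hormone-high cells (13.3%, 5.05% to 26.8%). There was none among 31 Neurog3-positive and 96 Chgb-low cells, which allows shares of up to 9.68% and 3.13%. Among Tph1-high cells the count ran from 2 of 17 in plate 1 to 14 of 27 in plate 4.

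Cplx1 had the values 3.25, 126, 112 and 154 CPM in Tph1-high cells of plates 1 to 4, and 23.4, 46.5 and 24.1 CPM in peptide-hormone-high cells of plates 2, 3 and 4. In Neurog3-positive cells it was at 0.721 and 0 CPM, and in Chgb-low cells at 0, 0.269, 0.0649 and 1.00 CPM. Tph1-high cells of plate 1, the plate of 39 weeks, thus stood apart from those of the other 3 plates, with 1 of 17 cells at 20 CPM or more against 12 of 22, 7 of 11 and 14 of 27. Age and plate cannot be told apart here, since a single plate has this age. Cplx1 was higher in Tph1-high than in Chgb-low cells by 8.18 ± 1.26 on the log2 scale (edgeR adjusted p = 0.0077). The comparison of peptide-hormone-high with Chgb-low cells gave 6.27 ± 1.24 and did not pass (edgeR adjusted p = 0.056), nor did that of Tph1-high with Neurog3-positive cells (edgeR adjusted p = 0.069), where 5497 counts stood against 2 and the ratio of pooled CPM was 591 (163 to 4879). In both of these comparisons Cplx1 was called higher by DESeq2 and by edgeR with thresholds halved. Counted by cell, Cplx1 was at 20 CPM or more in 34 of 77 Tph1-high, 8 of 45 peptide-hormone-high and none of the 31 Neurog3-positive or 96 Chgb-low cells.

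**Figure D2:**
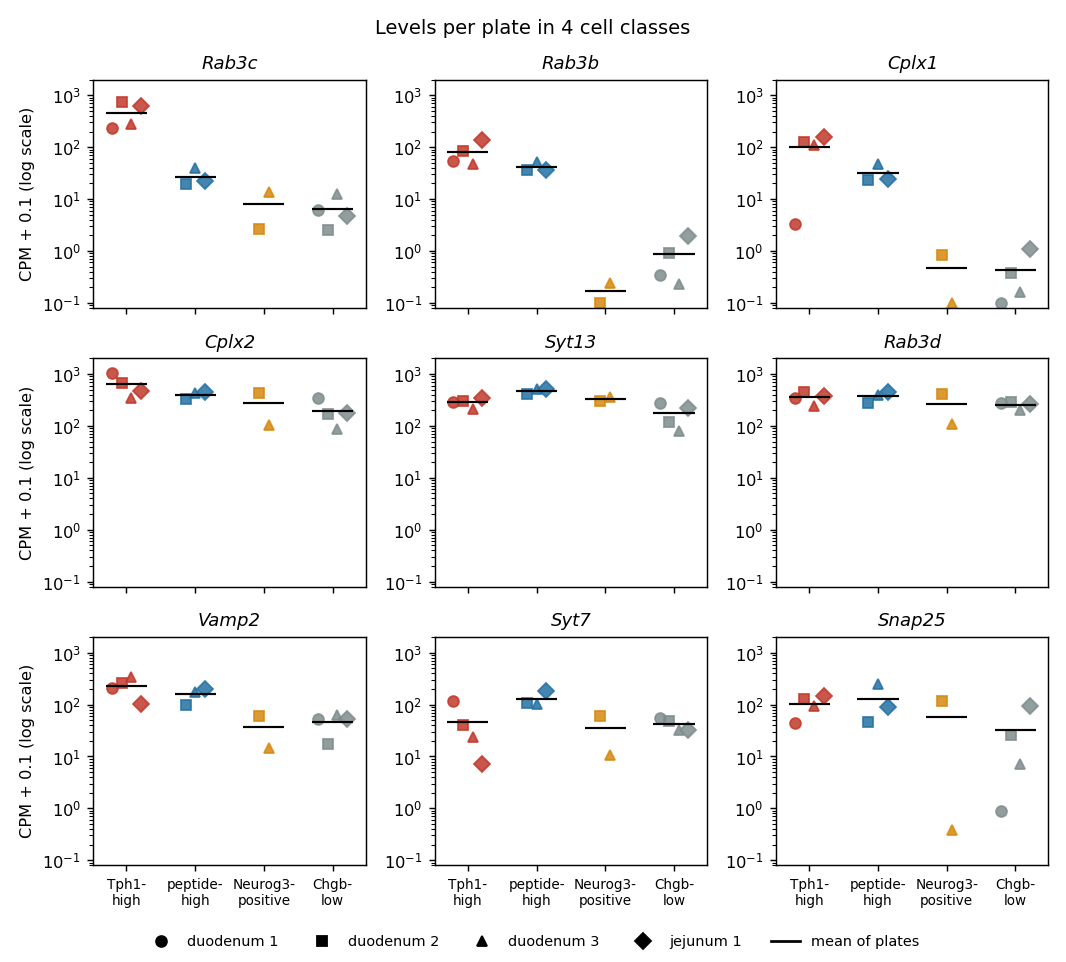
CPM + 0.1 (log axis) of 9 exocytosis genes in the 4 cell classes, with 1 point for the summed cells of each plate and a bar at the mean of the plates. Rab3c is at 239.6 to 729 CPM in Tph1-high cells and at most 39.3 CPM elsewhere, while Rab3b and Cplx1 are high in both hormone-expressing classes and at most 1.84 CPM in Neurog3-positive and Chgb-low cells. The low Tph1-high point of Cplx1 is plate 1 (duodenum 1), at 3.25 CPM.

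The Chgb-low cells differ from Tph1-high cells also in their goblet, Paneth, enterocyte, stroma and tuft markers and in their mitochondrial share, by the values given above, and the part of this in the 3 calls was not tested. Without duodenum replicate 2 or without jejunum replicate 1 the comparison called 1 exocytosis gene in place of 3, and in both cases this was Rab3c. Rab3b then had edgeR adjusted p-values of 0.10 and 0.065, and Cplx1 of 0.096 and 0.051. With any 1 of the 4 plates left out, 0 exocytosis genes were called between Tph1-high and Neurog3-positive cells (2 with all plates) and 0 between peptide-hormone-high and Chgb-low cells (1 with all plates).

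No other Rab gene was called in any comparison by edgeR, while DESeq2 called Rab27b higher in Tph1-high and in peptide-hormone-high than in Neurog3-positive cells. Rab3d, which encodes a Rab3 GTPase of large secretory granules in exocrine cells, had the values 345, 459.7, 241 and 369.8 CPM in Tph1-high cells of plates 1 to 4. It was at 275, 396 and 442 CPM in peptide-hormone-high cells, at 416 and 107 CPM in Neurog3-positive cells, and at 272, 288, 207 and 262 CPM in Chgb-low cells. All 4 classes overlapped, and the log2 difference of Tph1-high from Chgb-low cells was 0.11 ± 0.33 (edgeR adjusted p = 0.91). Rab3d was at 20 CPM or more in 61 of 77 Tph1-high cells and 77 of 96 Chgb-low cells. Among the Rab3 genes the plate sums therefore showed 3 patterns: Rab3c high in Tph1-high cells, Rab3b high in both hormone-expressing classes, and Rab3d at like levels in all.

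Rab3a, the main Rab3 GTPase of neurons, was at 49.0, 4.42, 0 and 35.1 CPM in Tph1-high cells and at 54.6, 37.7 and 43.3 CPM in peptide-hormone-high cells. Its Chgb-low values, 11.9, 0.448, 1.49 and 46.5 CPM, overlapped with both, and no comparison passed the test. Rab27a, a GTPase that ties granules to the cell cortex, ranged from 6.77 to 26.5 CPM in Tph1-high and from 3.01 to 29.4 CPM in Chgb-low cells. Rims2, an active zone scaffold that binds Rab3, ranged from 0.347 to 61.3 CPM within Tph1-high cells alone, so its spread within a class was larger than any difference between class means.

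The core fusion genes were present in all classes, with wide spread. Snap25 was at 44.1, 129, 93.3 and 145 CPM in Tph1-high cells of plates 1 to 4, at 46.2, 253 and 89.0 CPM in peptide-hormone-high cells, at 115 and 0.288 CPM in Neurog3-positive cells, and at 0.80, 25.3, 6.94 and 94.8 CPM in Chgb-low cells. Its levels were low in 3 of the 4 Chgb-low plates and overlapped in the jejunum plate. The log2 difference between Tph1-high and Chgb-low cells was 2.47 ± 1.5 (edgeR adjusted p = 0.46). Limma with each cell counted alike called Snap25 higher in this comparison. By cells, Snap25 was at 20 CPM or more in 38 of 77 Tph1-high, 14 of 45 peptide-hormone-high, 3 of 31 Neurog3-positive and 9 of 96 Chgb-low cells.

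Vamp2, the vesicle SNARE, was at 205, 266, 339 and 104 CPM in Tph1-high cells of plates 1 to 4, at 98.1, 177 and 204 CPM in peptide-hormone-high cells, at 59.5 and 14.2 CPM in Neurog3-positive cells, and at 53.6, 17.1, 63.3 and 53.9 CPM in Chgb-low cells. Every plate of the hormone-expressing classes lay above every plate of the others. The difference from Chgb-low cells was 1.99 ± 0.64 on the log2 scale for Tph1-high cells (edgeR adjusted p = 0.19) and 1.48 ± 0.69 for peptide-hormone-high cells (edgeR adjusted p = 0.50), and neither passed. Both DESeq2 and limma with each cell counted alike called Vamp2 higher in Tph1-high than in Chgb-low and in Neurog3-positive cells.

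Stx1a, the plasma membrane syntaxin of neurons and endocrine cells, was at 114, 63.7, 81.3 and 128 CPM in Tph1-high cells and at 142, 99.3 and 131 CPM in peptide-hormone-high cells. The Chgb-low values were 13.6, 51.9, 11.0 and 118 CPM, of which the jejunum value reached into the range of the hormone-expressing classes. Stx1a did not pass the edgeR test in any comparison, with the smallest edgeR adjusted p at 0.56. In the alternative by limma with each cell counted alike it was called higher in Tph1-high than in Chgb-low cells. Vamp8, a SNARE of exocrine granules that was picked out after its values were seen, was at 139.6 to 155 CPM in Tph1-high and 85.7 to 202 CPM in Chgb-low cells.

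Of the synaptotagmins, Syt13 was at 290.2, 301, 209 and 345 CPM in Tph1-high cells of plates 1 to 4 and at 407, 525 and 505 CPM in peptide-hormone-high cells of plates 2, 3 and 4. It was at 303 and 355 CPM in Neurog3-positive cells, and at 273, 119.9, 80.4 and 225 CPM in Chgb-low cells. Syt13 encodes an atypical synaptotagmin that lacks the residues for calcium binding. In CPM, without the scaling factors of the fit, the peptide-hormone-high plates lay above all the others. The log2 difference of Tph1-high from peptide-hormone-high cells was -0.87 ± 0.36 (edgeR adjusted p = 0.66), and that of peptide-hormone-high from Chgb-low cells was 1.40 ± 0.37 (edgeR adjusted p = 0.19), and neither passed. The second of these was called by DESeq2. The share of cells at 20 CPM or more was alike in the first 3 classes, at 49 of 77, 29 of 45 and 22 of 31 cells, so that the plate sums of peptide-hormone-high cells came with a median per cell of 270 CPM against 127 CPM in Tph1-high cells.

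Syt7, a calcium sensor of slow and granule exocytosis, was at 116, 40.3, 23.8 and 7.03 CPM in Tph1-high cells and at 105, 103 and 183 CPM in peptide-hormone-high cells. In the 3 plates that held both classes the peptide-hormone-high cells were the higher, while the Tph1-high cells of plate 1 reached into their range. Syt7 was at 20 CPM or more in 24 of 45 peptide-hormone-high cells (53.3%, 37.9% to 68.3%) and in 14 of 77 Tph1-high cells (18.2%, 10.3% to 28.6%). The log2 difference of Tph1-high from peptide-hormone-high cells was -2.41 ± 0.84 and did not pass (edgeR adjusted p = 0.59). By DESeq2 Syt7 was called lower in Tph1-high cells in this comparison. Syt7 in Chgb-low cells, at 54.0, 47.3, 32.2 and 32.1 CPM, lay below the peptide-hormone-high plates.

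Syt1 was nearly absent. It reached 20 CPM in 1 of 77 Tph1-high cells and in none of the 45 peptide-hormone-high, 31 Neurog3-positive or 96 Chgb-low cells, and that cell held 157 of the 163 counts of its class.

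Cplx2, which encodes the complexin that is widespread in neuroendocrine cells, was at 1053, 659, 347 and 472 CPM in Tph1-high cells of plates 1 to 4 and at 330.1, 431 and 444 CPM in peptide-hormone-high cells. It was at 440.0 and 105 CPM in Neurog3-positive cells and at 339, 169, 88.5 and 175 CPM in Chgb-low cells. The lowest Tph1-high plate lay above the highest Chgb-low plate by a narrow margin in CPM. The scaling factors of the edgeR fit, 1.09 for the first sum and 0.94 for the second, are left out of CPM. Divided by them, the 2 plates would overlap. The log2 difference was 1.43 ± 0.32, just outside the threshold (edgeR adjusted p = 0.056). The call depends on the setting: Cplx2 was called higher in Tph1-high cells in 6 alternatives, namely DESeq2, limma, at least 10 cells per sum, only the 2 classes fitted, cells that met several criteria kept, and thresholds halved. Cplx2 was at 20 CPM or more in 74 of 77 Tph1-high cells and in 55 of 96 Chgb-low cells. Unlike Cplx1, Cplx2 was thus found in every class, and in plate 1 of the Tph1-high cells it had its highest level where Cplx1 had its lowest.

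The priming genes were not called in any comparison by edgeR. DESeq2 called Cadps higher in peptide-hormone-high than in Chgb-low cells, Cadps2 higher in Tph1-high than in Neurog3-positive cells, and Unc13d higher in Tph1-high than in peptide-hormone-high cells. It called Unc13c higher in Tph1-high than in Neurog3-positive and peptide-hormone-high cells, and lower in both of the latter than in Chgb-low cells. Unc13c was at most 0.184 CPM in the Tph1-high sums and at 0 in all peptide-hormone-high and Neurog3-positive sums. In Chgb-low cells it was at 5.71 CPM in plate 3 and at 0 in the other plates, with 1 of 96 cells at 20 CPM or more. Unc13a, which opens syntaxin for SNARE assembly, was at 58.6, 49.0, 25.5 and 19.6 CPM in Tph1-high cells, at 78.1, 101 and 15.8 CPM in peptide-hormone-high cells and at 12.6, 2.86, 23.3 and 15.2 CPM in Chgb-low cells. Cadps, which prepares dense-core granules for fusion, was at 154, 78.8, 1.04 and 83.1 CPM in Tph1-high cells, at 25.5, 119.8 and 187 CPM in peptide-hormone-high cells and at 55.2, 8.77, 0.389 and 26.3 CPM in Chgb-low cells. Plate 3 had the lowest Cadps value in both Tph1-high and Chgb-low cells. By cells, Cadps was at 20 CPM or more in 37 of 77 Tph1-high and 21 of 45 peptide-hormone-high cells, against 4 of 31 Neurog3-positive and 15 of 96 Chgb-low cells.

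Sv2a, a glycoprotein of synaptic vesicles and granules, was at 26.8, 31.1, 18.8 and 23.6 CPM in Tph1-high cells of plates 1 to 4 and at 0.799, 62.1 and 43.8 CPM in peptide-hormone-high cells. It was at most 0.144 CPM in Neurog3-positive and 3.92 CPM in Chgb-low cells. The Tph1-high plates did not overlap with the Chgb-low plates, yet the log2 difference of 6.58 ± 1.98 did not pass (edgeR adjusted p = 0.16). By DESeq2 Sv2a was called higher in both hormone-expressing classes than in Chgb-low and in Neurog3-positive cells. Sv2a came from few cells: 9 of 77 Tph1-high, 5 of 45 peptide-hormone-high, 1 of 31 Neurog3-positive and 1 of 96 Chgb-low cells were at 20 CPM or more.

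**Figure D3:**
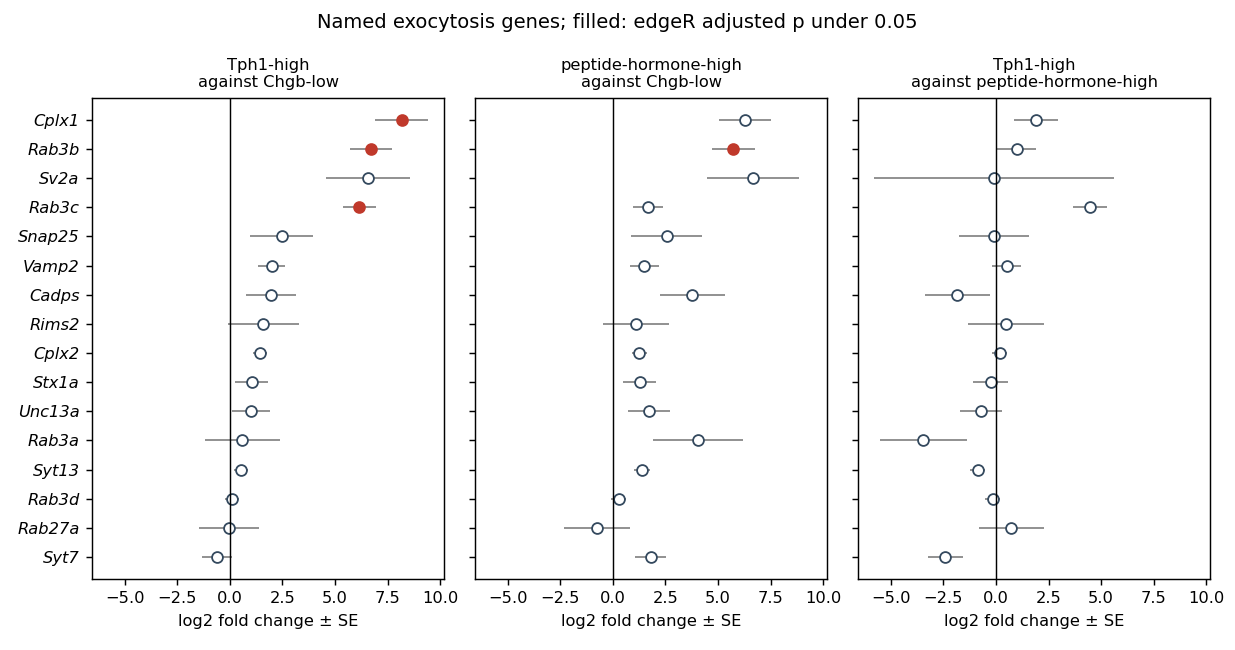
log2 fold change ± SE of 16 named exocytosis genes in 3 comparisons from the edgeR fit, with filled points where the adjusted p is under 0.05 (Syt1 was not tested). Cplx1, Rab3b and Rab3c are filled for Tph1-high against Chgb-low cells, Rab3b for peptide-hormone-high against Chgb-low cells, and no point is filled for Tph1-high against peptide-hormone-high cells, where Rab3c stands highest at 4.48. The SE is derived from the test statistic and is very wide for Sv2a in the last panel, whose difference is near 0.

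Counted over all 56 tested members, the median log2 difference between Tph1-high and Chgb-low cells was 0.88, against 0.08 over all 14895 genes, and 42 of the 56 were above 0. By CPM without the scaling factors of the fit, every Tph1-high plate lay above every Chgb-low plate in 12 of the 56. The background of such genes was 7.73%. The 12 were Cplx1, Cplx2, Rab3b, Rab3c, Stx19, Stx2, Stx3, Stx5a, Stxbp3, Sv2a, Syt5 and Vamp2. Of these, Stx19 had no count in Chgb-low cells and ran from 0.0445 to 8.30 CPM in Tph1-high cells. With no count in the Neurog3-positive sums either, it passed the filter on low counts through the hormone-expressing classes only. In none of the 56 did every Tph1-high plate lie below, where the background was 4.46%. For peptide-hormone-high against Chgb-low cells the median was 0.60, against -0.14 over all genes, and 35 of the 56 were above 0. Here 9 of the 56 lay wholly above, with a background of 7.52%, and 0 wholly below, with a background of 4.83%. Cplx1, Rab3b, Rab3c, Syt5 and Vamp2 were in both sets, which share their Chgb-low sums, and Syt13, Syt7, Unc13b and Vamp3 were in the second only by this count. The 1 gene called in that comparison, Rab3b, stands beside a background of 0.295% called higher.

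Tph1-high and Neurog3-positive cells differed in 2 of 56 exocytosis genes, Rab3c and Rab3b, both higher in Tph1-high cells, where the background was 0.383% called higher. The median log2 difference over the 56 was 1.40, against 0.44 over all genes. With only the 2 classes in the fit, or with cells that met several criteria kept, 0 were called. Stx2, a plasma membrane syntaxin picked out after its values were seen, had 681 counts in Tph1-high cells and 0 in Neurog3-positive cells, at least 48.8-fold higher by the limit of 3 counts over the class. This fold was carried by 8 of 77 cells.

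No exocytosis gene was called between peptide-hormone-high and Neurog3-positive cells by edgeR, where the background was 0.114%. At an unadjusted p under 0.05 there were 5 higher and 0 lower of 56, beside 9.69% of all genes in either direction. DESeq2 called 6 higher and 1 lower of the 66 members to which it gave an adjusted p, beside 9.69% of all such genes. Between Neurog3-positive and Chgb-low cells edgeR also called 0, with a background of 0.0134%. There 1 of 56 was higher and 0 lower at an unadjusted p under 0.05 (Syt13, 1.22 ± 0.43 on the log2 scale), beside 5.8% of all genes. DESeq2 called 0 higher and 3 lower of 68, beside 6.72% of all genes. The median log2 difference of the 56 was -0.19, against -0.42 over all genes. Neurog3-positive sums came from 2 plates only, with 7 and 16 cells.

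The direct comparison of Tph1-high with peptide-hormone-high cells called 0 exocytosis genes by edgeR, with a background of 0.128%. At an unadjusted p under 0.05 there were 5 higher and 3 lower of 56, beside 7.35% of all genes in either direction. DESeq2 called 4 higher (Rab3c, Stxbp5l, Unc13c and Unc13d) and 3 lower (Syt7, Sytl2 and Sytl4) of the 68 members to which it gave an adjusted p, beside 6.15% of all such genes. Of these, Unc13c was at most 0.184 CPM and Sytl4 at most 0.097 CPM in any sum of either class. Unc13d reached 20 CPM in 3 of 77 Tph1-high and 0 of 45 peptide-hormone-high cells. In 5 of the 56 every Tph1-high plate lay above every peptide-hormone-high plate (Rab3c, Stxbp5l, Syt11, Unc13d and Vamp8, background 4.42%). In 2 every one lay below (Syt13 and Sytl2, background 3.54%). For Unc13d the order rests on 0.163 CPM in the lowest Tph1-high plate against 0.114 CPM in the highest peptide-hormone-high plate. Counts were also simulated for genes drawn from all those tested, with the spread fitted for their level. There edgeR called 7 of 99 genes that differed 8-fold and 49 of 97 that differed 64-fold. What would be missed among the exocytosis genes, whose own spread differs from gene to gene, was not simulated. On the same simulated counts DESeq2 called 96 changed and 252 unchanged genes.

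Sytl2, which encodes a Rab27 effector, was picked out after its values were seen. It was at 0.163, 0, 0 and 0.267 CPM in Tph1-high cells of plates 1 to 4, and at 12.9, 27.7 and 13.7 CPM in peptide-hormone-high cells of plates 2, 3 and 4. No Tph1-high cell of 77 reached 20 CPM, which allows a share of up to 3.90%, against 8 of 45 peptide-hormone-high, 5 of 31 Neurog3-positive and 19 of 96 Chgb-low cells. Its log2 difference between Tph1-high and peptide-hormone-high cells was -7.29 ± 2.06 and did not pass (edgeR adjusted p = 0.44).

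Within the peptide-hormone-high class, the 10 cells that met the criterion by Ghrl alone were set beside the 35 with Cck, Gip or Gcg. These numbers describe cells pooled over plates, and no test was made. Rab3b, Cplx1 and Sv2a were at 20 CPM or more in 0 of 10 Ghrl-only cells, and in 6, 8 and 5 of the 35 others. A count of 0 in 10 cells still allows a share as high as those of the others. Pooled Vamp2 was 17.9 CPM in Ghrl-only cells against 185 CPM in the others, and Syt13 was 81.6 against 542 CPM. Syt7 and Stx1a went the other way, with 272 against 108 CPM and 259 against 99.2 CPM.

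Among the cells left out of the classes, 17 met both the Tph1 and the Neurog3 criterion. Rab3c was at 20 CPM or more in 15 of these 17 (88.2%, 63.6% to 98.5%), beside 85.7% of Tph1-high cells. Rab3b was at this level in 1 of 17 (5.88%, 0.15% to 28.7%) and Cplx1 in 3 of 17 (17.6%, 3.80% to 43.4%), against 35.1% and 44.2% of Tph1-high cells. Rab3d was found in 17 of 17 and Cplx2 in 16 of 17. The cells came from all 4 plates (3, 3, 8 and 3), and no test was made of their difference from either class.

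**Figure D4:**
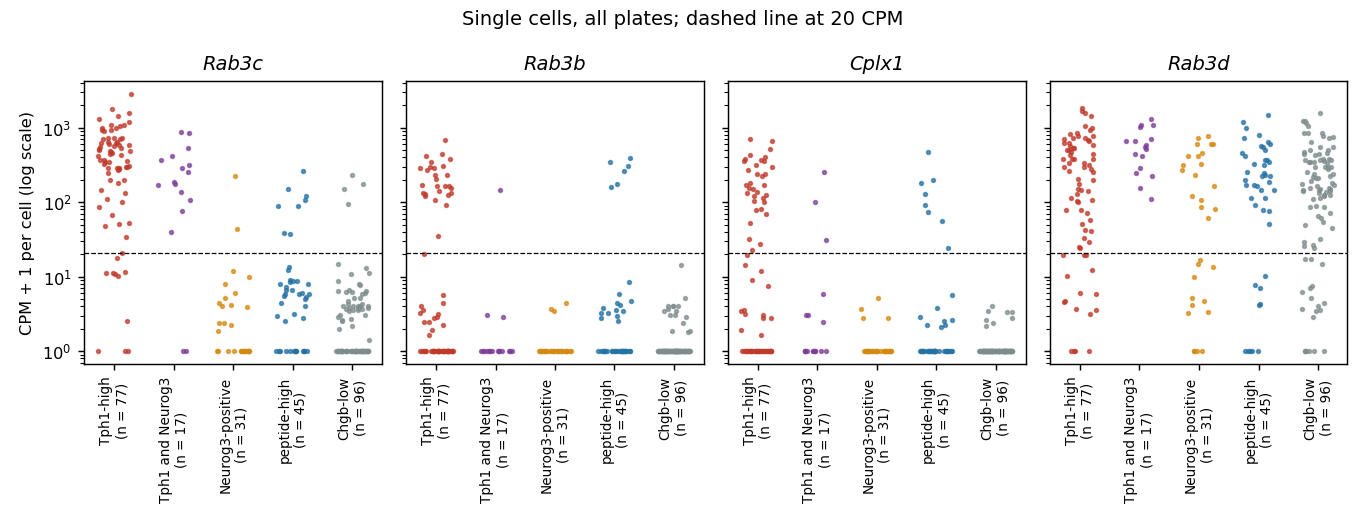
CPM + 1 (log axis) of Rab3c, Rab3b, Cplx1 and Rab3d in single cells of all plates, with 1 point per cell, in the 4 classes and in the 17 cells that met both the Tph1 and the Neurog3 criterion, and a dashed line at 20 CPM. Rab3c lies above the line in 66 of 77 Tph1-high cells and 15 of 17 cells with both criteria, Rab3b in 27 of 77 and 1 of 17, and Rab3d above the line in most cells of every class.

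Along the gut, the jejunum plate was set beside the 3 duodenum plates on the sum of all cells. No exocytosis gene of 66 tested was called by edgeR (background 0% of 19329 genes). At an unadjusted p under 0.05, 2 of 66 were higher in the jejunum plate (Sv2c and Rab3b) and 2 lower (Stxbp6 and Sytl2), beside 4.24% of all genes in either direction. DESeq2 called 0 higher and 2 lower (Stxbp6 and Sytl5) of 65, beside 4.23% of all genes. Rab3b was at 18.5, 37.6 and 13.3 CPM in the duodenum plates and 78.1 CPM in the jejunum plate, and Sv2c, a relative of Sv2a, was at 49.1, 25, 15.4 and 98.8 CPM. The jejunum plate also held the largest share of Tph1-high cells, 42.9% against 15.3% to 26.5%, and the part of this in these values was not tested. With 1 jejunum plate, tissue and plate cannot be told apart.

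Beyond the exocytosis families, 61 other genes of regulated secretion were in the table and 51 were tested, among them the SNARE recycling factor Nsf, the synapsins and the exocyst. In 5 of the 6 class comparisons edgeR called none of them. Syp, which encodes the vesicle protein synaptophysin, was called higher in peptide-hormone-high than in Chgb-low cells, by 3.64 ± 0.69 on the log2 scale (edgeR adjusted p = 0.047). Its values were 197, 148 and 425 CPM in peptide-hormone-high cells and 64.5, 31.1, 4.87 and 10.7 CPM in Chgb-low cells, with no overlap. In Tph1-high cells of plates 1 to 4 Syp was at 483, 61.3, 79.2 and 228 CPM. Only plate 2 lay within the range of Chgb-low cells. The median log2 difference of the 51 genes between Tph1-high and Chgb-low cells was 0.85, beside 0.88 for the exocytosis genes.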

How the data were processed

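The values are raw counts, a table the authors deposited with 1 column per well for the cells they kept, and were used unchanged. Per the submitters' processing notes the tools were bcl2fastq 2.17.1.14, cutadapt 1.10, Bowtie2 2.2.8, STAR 2.5.3a, UMI-tools 0.4.4 and HTSeq 0.6.1, with the genome build mm10. Settings, the cell filter and any collapsing of copies by molecular index were not given in the sources used here. Plates were assigned through the experiment number of a column and the pool number of a title, on which their tissue and age depend. Symbols and gene positions came from GENCODE M21 on GRCm38 (29120 of 29161 genes) and promoters from RefSeq. Counts are per gene and not per length, so levels were compared between classes and not between genes. No cell was removed and no doublet caller was run, since each well received 1 sorted cell.

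Counts were summed per plate and class (at least 5 cells) and tested with edgeR 4.0.16 (R 4.3.3, limma 3.58.1): TMM, filterByExpr, quasi-likelihood test, plate as a block, 6 residual degrees of freedom, Benjamini-Hochberg adjustment and a threshold of 0.05. The SE of a fold change was derived from the F statistic. Levels per plate, and statements on which plates overlap, use CPM without the TMM factors. These factors were 1.05 to 1.17 in Tph1-high and 0.83 to 0.94 in Chgb-low sums, so that narrow gaps can close with them. The test was checked on simulated data. DESeq2 1.42.0 and limma were alternatives. Near the class limits (within 1.5-fold) lay 4 cells for Tph1, 13 for the peptide hormones, 4 for Neurog3 and 7 for Chgb. The nearest cells around the limits were at 185 and 223 CPM of Tph1, 907 and 1072 CPM of a peptide hormone, 3 and 5 counts of Neurog3, and 1712 and 2198 CPM of Chgb.

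The members, classes and lists were chosen with earlier results of these data known. Named genes were 17 fixed genes of the main roles, of which 1 is not reported here (the others were Snap25, Stx1a, Vamp2, Syt1, Syt7, Syt13, Rab3a, Rab3b, Rab3c, Rab3d, Rab27a, Rims2, Unc13a, Cplx2, Cadps and Sv2a), any other member past the threshold with the same direction in every plate, and up to 5 companion genes per comparison, and any further member named was chosen after its values were seen. The plate block pairs classes sorted into the same plate, which comes from the design.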

Additional observations from a re-analysis of the deposited data

Results flagged for a closer look

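Among 35 groups of 4 plates examined over the 18 named exocytosis genes, 2 had a plate far from the others, and chance alone flags about 5% of such groups. Syt1 in Tph1-high cells was at 7.25 CPM in the jejunum plate and at 0 in the duodenum plates, and 157 of its 163 counts came from 1 cell. Sv2a in Chgb-low cells was at 3.92 CPM in duodenum replicate 1 and at most 0.335 CPM in the other plates, and 48 of its 53 counts came from 1 cell. Rab3c was at 279 CPM in the pooled counts of the 17 cells that met both the Tph1 and the Neurog3 criterion, which the main comparisons of classes left out, against 2.52 and 13.5 CPM in the plates of Neurog3-positive cells.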

How the results depend on the processing

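Rab3c in Tph1-high against Chgb-low cells passed in all 15 alternatives (log2 difference 4.13 to 6.81). Rab3b and Cplx1 passed in 13 of 15 there, Rab3b and Rab3c in 8 of 15 against Neurog3-positive cells, and Rab3b in 7 of 15 for peptide-hormone-high against Chgb-low cells. None of these 6 differences changed sign.

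Tph1-high against Chgb-low cells gave 3 exocytosis genes called among 357 of all genes, with 13 by DESeq2 (2922 of all), 9 by limma on cell means (1080 of all), 5 with overlapping cells kept and 1 to 3 with a plate left out. With no replicate block for the plate it gave 4, Sytl2 (lower) being added. Tph1-high against Neurog3-positive cells gave 2 (140 of all), with 11 by DESeq2 (2758 of all), 4 by limma (364 of all), 0 with at least 10 cells, 0 with only the 2 classes fitted, 0 with overlapping cells kept and 0 to 0 with a plate left out, which without duodenum replicate 2 or 3, as with at least 10 cells, leaves 1 Neurog3-positive sum, assumed to vary like the other classes. Peptide-hormone-high against Chgb-low cells gave 1 (138 of all), with 11 by DESeq2 (2079 of all), 0 with at least 10 cells, 2 with no filter on low counts, 0 with only the 2 classes fitted, 0 with overlapping cells kept, 2 with thresholds doubled or halved, and 0 to 0 with a plate left out. By limma it was also 1 (230 of all), but Syt7 in place of Rab3b. The remaining comparisons gave 0, with 7 by DESeq2 (1333 of all) and 1 by limma (129 of all) for Tph1-high against peptide-hormone-high, 7 by DESeq2 (1890 of all) for peptide-hormone-high against Neurog3-positive, 3 by DESeq2 (1420 of all) for Neurog3-positive against Chgb-low and 2 by DESeq2 (803 of all) for jejunum against duodenum. The cause of these shifts was not tested.

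On simulated counts for Tph1-high against peptide-hormone-high cells (14484 genes, 196 changed) DESeq2 called 96 changed and 252 unchanged genes, limma 32 and 0, and edgeR called no unchanged gene. The number of plates, and for Neurog3-positive cells the number of cells, limits what was detectable.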
